A study of Mus musculus with 8 samples.

Results

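A set of 8 RNA-binding regulators of the Musashi, CELF, ELAV-like, ZFP36-like, Quaking and Pumilio families (Msi1, Msi2, Celf1, Elavl1, Zfp36l1, Zfp36l2, Qk and Pum2) was examined in intestinal crypts with and without the RNA-binding protein Mex3a. They were chosen by gene name, as the rows of the deposited table that carry these 8 symbols out of 55114 genes, without a threshold on any measured value. Earlier results of these data were known when the set was chosen. Of the 8 genes, 7 had counts and passed the filter on low counts, and Celf1 was listed at 0 in every mouse. Crypts are the pockets of the intestinal epithelium that hold the intestinal stem cells (ISCs). They were released with EDTA from 4 Mex3a knockout (KO) mice and 4 littermate controls (WT), all C57BL/6 and 8 weeks old, and their total RNA was sequenced. The KO is constitutive, with exon 1 and part of exon 2 of Mex3a deleted in every tissue, so that changes need not arise in the crypt itself. WT mice carry the intact gene.

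These proteins act after transcription. Musashi proteins bind UAG-containing sites and mostly repress translation, and Msi1 is long known as a marker of the crypt base. Pumilio proteins and the ZFP36 family recruit the CCR4-NOT deadenylase, which shortens the poly(A) tail of an mRNA and opens it to decay, whereas Elavl1 (HuR) mostly stabilises AU-rich mRNAs of the same kind. Celf1 binds GU-rich sites and Quaking binds ACUAAC-like sites, and both act in splicing and in mRNA decay. MEX3A belongs to another family of KH-domain proteins that bind 3'UTRs.

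The counts summed over genes were 20324184 to 24726221 in the WT libraries and 23489180 to 30654105 in the KO libraries. Mex3a itself ranged from 236 to 328 counts in WT and from 6 to 28 in KO, so no library went against its label. The 6 epithelial markers were high in all mice, each with a median of at least 9924 counts, and their sum also separated the genotypes (8529 to 9041 CPM in WT, 9656 to 11100 CPM in KO, 3 of 6 higher in KO with an unadjusted p under 0.05, beside 5.33% of all genes tested), while the sum of 9 stromal markers was 10.0 to 26.7 CPM (counts scaled to a common library size). Replicates 1 and 2 of each genotype carried the Y-chromosome gene Ddx3y and replicates 3 and 4 carried Xist, so the genotypes were balanced for this. The libraries also differed in other crypt cells, since 5 Paneth cell markers summed to 6044 to 36560 CPM and 5 enterocyte markers to 1044 to 2516 CPM in WT and 1604 to 6500 in KO, highest in KO replicate 3.

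Short sites for the regulators themselves lie in their own 3'UTRs, and those shown here are the ones the results below return to. They are read 5′ to 3′ on the transcribed strand from the longest coding transcript of each gene in GENCODE M21 (GRCm38), in DNA letters, and the capitals mark the motif. All of them lie in the last exon. Msi1, the one regulator whose level separated the genotypes, held 1 Pumilio motif, 1 AU-rich motif and 1 Quaking motif in the 1895 bases of its 3'UTR, at chr5:115454470-115454487, chr5:115454038-115454054 and chr5:115453973-115453988 on the plus strand.
Msi1, Pumilio motif: tcataTGTAAATActgtg
Msi1, AU-rich motif: gctttTATTTATttttg
Msi1, Quaking motif: cccctACTAACctcct

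The transcripts of Pum2 and Qk held the motif of their own protein, and the transcripts of Zfp36l1 and Zfp36l2 held the AU-rich motif that their proteins bind. They are shown because each regulator thus carries a match to its own motif. At least 1 match is common in 3'UTRs of like length, held by 43.6% of genes for Pum2, 65.8% for Qk, 37.6% for Zfp36l1 and 37.3% for Zfp36l2. At least 3 are held by 2.61% for Zfp36l1 and 2.53% for Zfp36l2. Elavl1, whose protein also acts on AU-rich mRNAs, held 5 AU-rich motifs, which are not shown. The Pum2 sites lie at chr12:8750160-8750177 and chr12:8750413-8750430 (plus strand), the Qk sites at chr17:10206545-10206560 and chr17:10206462-10206477 (minus strand). The Zfp36l1 site is that at chr12:80108428-80108444, and the Zfp36l2 site that at chr17:84184920-84184936, both on the minus strand, and each is the first of 3 in its 3'UTR.
Pum2, Pumilio motif, first: agagaTGTATATAgaatt
Pum2, Pumilio motif, second: agaatTGTATATActtat
Qk, Quaking motif, first: aacctACTAACtctgg
Qk, Quaking motif, second: cctggACTAACactga
Zfp36l1, AU-rich motif: aaacgTATTTATtgcca
Zfp36l2, AU-rich motif: taactTATTTATtatct

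The regulators covered a wide span of levels, and their order was the same in the mice of both genotypes. By FPKM, which divides counts by gene length and library size and so allows genes to be compared, Zfp36l2 was the highest with 125.7 ± 14.4 (SD, n = 8 mice). It was followed by Pum2 with 27.4 ± 1.77, Zfp36l1 with 16.3 ± 1.78 and Elavl1 with 9.77 ± 1.59. Between these 4 neighbours, and between Elavl1 and Msi1, the ranges over the 8 mice did not overlap.

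Msi1 had 7.05 ± 1.02 FPKM and Msi2 5.22 ± 0.722 (SD, n = 8). The ranges of the Musashi pair overlapped over the 8 mice, although Msi1 was above Msi2 in each of the 8. Qk was far lower, with 0.0833 ± 0.0361 FPKM, 62.7 times below Msi2, and its spread of 43.4% of the mean was the widest of the 7 genes. Among the genes tested, the mean FPKM of Zfp36l2 stood at the percentile 97.7, that of Msi1 at 59.9 and that of Qk at 1.04.

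**Figure D1:**
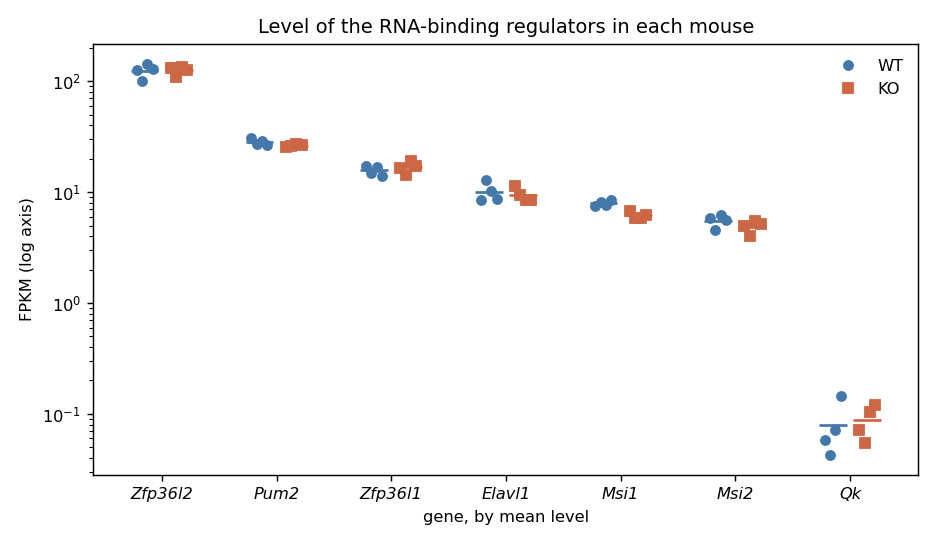
FPKM of the 7 detected regulators in each mouse, on a log axis, ordered by mean level (circles, WT; squares, KO; horizontal lines, genotype means, n = 4 mice each). Zfp36l2 lies near 126 FPKM and Qk near 0.0833, and the KO mice lie wholly below the WT mice for Msi1.

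The comparison of KO with WT asks whether the loss of one RNA-binding protein is accompanied by altered mRNA levels of others. Msi1 was 22.5% lower in KO crypts (log2 fold change -0.37, SE 0.076), with every KO mouse below every WT mouse, and the genotypes overlapped for each of the other 6 genes tested. Of the 7, Msi1 alone had an unadjusted p under 0.05 (edgeR, quasi-likelihood), in the direction in which 3.05% of the 16109 genes tested did so, and 8.38% did in either direction. None of the 7 passed the Benjamini-Hochberg adjustment, which 1 gene in all passed, Mex3a (0.00621% of the genes tested). With the replicate number as a block, 2 of the 7 had an unadjusted p under 0.05, Msi1 and Msi2, while the share of all genes tested that did so was 11.3% in that fit.

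Msi1 (ENSMUSG00000054256; GRCm38 chromosome 5, 115429599 to 115455698, plus strand), the Musashi family member known for the crypt base, had 44.3, 47.2, 44.1 and 49.7 CPM in WT replicates 1 to 4. The KO replicates 1 to 4 had 39.0, 33.8, 34.4 and 36.5 CPM. The groups did not overlap, and the highest KO mouse, replicate 1, lay below the lowest WT mouse, replicate 3. A separation in this direction was found in 1.87% of the genes tested. The means were 46.3 ± 2.63 CPM for WT mice and 35.9 ± 2.39 for KO mice (SD, n = 4 each). The 95% interval of the log2 fold change was -0.54 to -0.20. In edgeR's quasi-likelihood test its p was 0.000805 before adjustment over all genes (adjusted p = 0.429).

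The two-sided exact permutation test over the 70 assignments of the mice gave p = 0.0286 for Msi1, the smallest p that 4 mice against 4 allow. In counts before scaling, Msi1 overlapped between the genotypes (904 to 1189 in WT, 795 to 1098 in KO), because the KO libraries were deeper. By FPKM the groups were again apart, with 7.53 to 8.49 in WT and 5.81 to 6.73 in KO. The difference was present among the Ddx3y-carrying mice (KO over WT ratio 0.796) and among the Xist-carrying mice (ratio 0.756), with both KO mice below both WT mice in each. DESeq2 gave an adjusted p of 0.0226 for Msi1, the only one of the 18 other settings in which it passed, and the adjusted p ranged up to 0.952 (without KO replicate 3, where the log2 fold change was -0.35).

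**Figure D2:**
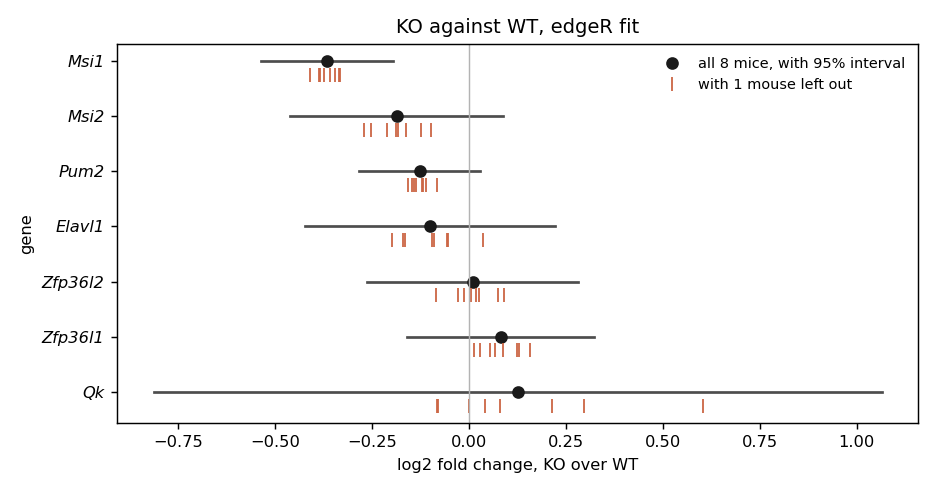
Log2 fold change of KO over WT for the 7 regulators tested (dots, edgeR fit on 8 mice; bars, 95% intervals; ticks below, the 8 fits that each leave out 1 mouse). Msi1 at -0.37 is the gene whose interval and ticks all lie below 0, and the interval of Qk is the widest, from -0.81 to 1.06.

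Markers of the crypt base stem cell were lower together with Msi1. The summed level of Lgr5, Olfm4, Smoc2 and Ascl2, all markers of that cell, was 3989 to 4786 CPM in WT and 2940 to 3667 in KO, without overlap. Of these 4 genes, 3 were lower with an unadjusted p under 0.05 in the same edgeR fit, as 3.05% of all genes tested were. Their log2 fold changes were -0.50 for Lgr5, -0.34 for Olfm4 and -0.31 for Smoc2. The 4 markers were chosen after their values were seen, so this count describes them and is no test. Ascl2 had -0.24. All KO mice were below all WT mice for Olfm4 and Smoc2, and 2 of 4 were for Lgr5 and for Ascl2, and none of the 4 passed adjustment (adjusted p from 0.518 to 0.787, edgeR). The sum of the 6 epithelial markers, which was higher in KO, moved the opposite way. The 3 of them with an unadjusted p under 0.05 were Vil1, Krt8 and Krt19, with log2 fold changes of 0.59, 0.27 and 0.20 (edgeR). The others, Epcam, Cdh1 and Krt18, had 0.07, 0.0021 and 0.04. In such bulk samples, fewer cells of a type and less RNA per cell cannot be told apart.

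Msi1 and the summed markers were lower in KO by a like amount, with differences of mean log2 CPM of -0.37 for Msi1 and -0.35 for the sum. Per 1000 CPM of the 4 markers, a scale chosen after both differences were seen, Msi1 was 11.1, 9.86, 10.4 and 12.4 in WT replicates 1 to 4 and 10.6, 9.39, 10.7 and 12.4 in KO replicates 1 to 4. The ranges overlapped almost wholly, and the difference of mean log2 ratios was -0.02. This ratio restates that both differences were alike and is no test of a link between them. Olfm4 made up 89.1% to 93.6% of the summed markers. Against each of the other 3 markers by itself the difference lay between -0.08 (Ascl2) and 0.13 (Lgr5). The scale raises the KO minus WT difference of any gene by the same 0.35, so that it sets the other 6 regulators above 0, at 0.16 (Msi2), 0.22 (Pum2), 0.25 (Elavl1), 0.36 (Zfp36l2), 0.42 (Zfp36l1) and 0.56 (Qk). Of these, Msi2, Pum2 and Elavl1 were below 0 on the CPM scale. The part of the stem cell markers in the level of Msi1 was not tested.

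**Figure D3:**
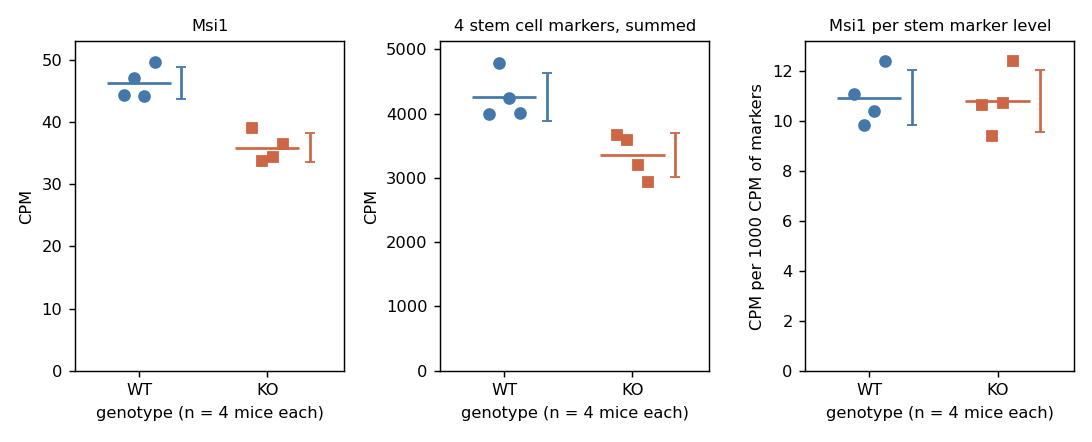
Msi1 (left, CPM), the summed level of Lgr5, Olfm4, Smoc2 and Ascl2 (middle, CPM) and Msi1 per 1000 CPM of these markers (right) in each mouse (circles, WT; squares, KO; lines, means; error bars, SD, n = 4 each). The genotypes are apart in the left and middle panels and overlap in the right one, the ratio of the other two, at 10.9 in WT and 10.8 in KO.

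Msi2 (chromosome 11, 88339382 to 88718513, minus strand), the second Musashi protein, had 61.2, 47.6, 65.0 and 58.7 CPM in WT replicates 1 to 4. It had 51.1, 41.7, 57.9 and 53.6 CPM in KO replicates 1 to 4. The groups overlapped, since WT replicate 2 was below 3 of the KO mice, while every KO mouse was below the WT mouse of the same number. The log2 fold change was -0.19 (SE 0.12, 95% interval -0.46 to 0.09, adjusted p = 0.715, edgeR). Blocked by replicate number, the unadjusted p was 0.0215 and the adjusted p 0.352, and with 1 mouse left out the log2 fold change of Msi2 ranged from -0.27 (without WT replicate 2, unadjusted p 0.0385) to -0.10 (without KO replicate 2, unadjusted p 0.389) in edgeR's test. Without WT replicate 3 it was -0.12.

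A difference in the balance between the Musashi genes was not detectable with 4 mice a group. The log2 ratio of Msi2 to Msi1 FPKM was -0.52 ± 0.24 in WT and -0.34 ± 0.20 in KO (SD, n = 4 each), with overlapping groups and a two-sided exact permutation p of 0.343 (0.60 after adjustment over the 2 ratios examined). The KO minus WT difference of 0.18 became 0.078 when WT replicate 2 was left out, 0.096 when KO replicate 3 was, and reached 0.26 when WT replicate 3 was. Across the 8 mice, with the genotype means taken out, Msi1 and Msi2 had a Pearson r of -0.06 (exact permutation p = 0.894, adjusted 0.939) and a Spearman rho of -0.19 (exact permutation p = 0.712, adjusted 0.879).

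Pum2 (chromosome 12, 8674134 to 8752581, plus strand), a Pumilio repressor, was the second most abundant of the regulators and varied least between mice. It had 228, 201, 210 and 196 CPM in WT replicates 1 to 4 and 184, 189, 196 and 194 CPM in KO replicates 1 to 4. The groups met at their edges, with 3 of the 4 KO mice below the lowest WT mouse and each KO mouse below the WT mouse of its number. The log2 fold change was -0.13 (SE 0.070, 95% interval -0.28 to 0.03, adjusted p = 0.655, edgeR), with -0.16 (WT replicate 4 left out) to -0.08 (WT replicate 1 left out) when 1 mouse was omitted, and the two-sided exact permutation test gave p = 0.0571.

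Zfp36l2 (chromosome 17, 84183931 to 84187947, minus strand) and Zfp36l1 (chromosome 12, 80107754 to 80113013, minus strand) encode zinc finger proteins that bring AU-rich mRNAs to decay. Zfp36l2, the most abundant of the 8, had 452, 354, 511 and 460 CPM in WT replicates 1 to 4 and 468, 388, 482 and 451 in KO replicates 1 to 4. The KO mice lay within the WT range. Its log2 fold change was 0.01 (SE 0.12), and its 95% interval, -0.26 to 0.28, bounds the difference that 4 mice a group could leave unseen (adjusted p = 0.991, edgeR).

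Zfp36l1 had 52.3, 44.8, 51.0 and 42.2 CPM in WT replicates 1 to 4, against 49.7, 42.5, 57.3 and 51.8 in KO replicates 1 to 4. These groups overlapped widely, with KO replicate 3 above all WT mice. KO over WT, it had a log2 fold change of 0.08 (SE 0.11, 95% interval -0.16 to 0.32, adjusted p = 0.884, edgeR), and leaving out 1 mouse gave values from 0.01 (KO replicate 3 left out) to 0.16 (KO replicate 2 left out). The log2 ratio of Zfp36l1 to Zfp36l2 FPKM was -2.98 ± 0.21 in WT and -2.92 ± 0.07 in KO (SD, n = 4 each), with a two-sided exact permutation p of 0.60 (0.60 adjusted). Zfp36 itself, the founding member of the family, had 257.6 ± 35.4 CPM for WT and 271.5 ± 39.8 for KO (SD, n = 4 each), with a log2 fold change of 0.08 (adjusted p = 0.925, edgeR).

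Elavl1 (chromosome 8, 4285382 to 4325413, minus strand) had 90.2, 134, 106 and 90.9 CPM in WT replicates 1 to 4 and 117, 97.7, 89.1 and 88.7 CPM in KO replicates 1 to 4. The highest WT mouse, replicate 2, stood above the rest, and the other 7 mice overlapped. Its log2 fold change was -0.10 (SE 0.14, adjusted p = 0.896, edgeR), and it became 0.03 without WT replicate 2. Elavl1 shares 204 bases of its interval with Ccl25 on the opposite strand, a chemokine gene with a mean of 7282 counts against 2402 for Elavl1. Whether reads were counted by strand is not given in the sources used here, so the reads of the 2 genes in that stretch cannot be told apart.

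Qk (chromosome 17, 10202601 to 10319854, minus strand), which encodes Quaking, was near the limit of detection with 18, 13, 21 and 50 counts in the WT mice 1 to 4 and 24, 20, 34 and 52 in the KO mice 1 to 4. The mouse numbered 4 was the highest of each genotype, also in CPM (2.09 in WT, 1.73 in KO), and its library was the deepest of its genotype. At this depth the log2 fold change of 0.13 had a 95% interval of -0.81 to 1.06 (SE 0.42, adjusted p = 0.966, edgeR), so a difference of Qk was not detectable. The summed level of 9 stromal markers was likewise highest in replicate 4 of each genotype, at 20.1 CPM in WT and 26.7 CPM in KO, against 10.0 to 18.8 and 14.7 to 20.4 in the other mice. Of the 9 stromal markers, 5 passed the filter, and the lowest, Lum, had a median of 1 count. The summed levels of 3 endothelial and of 5 enteric neuron markers were also highest in replicate 4 of each genotype. They were 4.97 CPM in WT and 2.59 in KO for endothelium, and 4.93 and 5.885 for enteric neurons. The part of stromal, endothelial or neuronal cells in the level of Qk was not tested.

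Celf1 (chromosome 2, 90940382 to 91019497, plus strand) was listed at 0 in all 8 mice, where 3 counts would be 0.148 CPM in the shallowest library and 0.0979 CPM in the deepest. It lay in a run of 8 neighbouring genes, 5 of them protein coding, from 90885860 to 91045729, of which none had more than 4 counts over the 8 mice. The run includes Ndufs3, a subunit of mitochondrial complex I, so the zeros concern the stretch of the table and not the gene alone. The table also holds the scaffold CHR_MG191_PATCH, with 4 unnamed genes of the authors' own. One of these spans 90940436 to 91019520 on the plus strand, numbers that cover 99.9% of the Celf1 interval, with a length of 8040 bases against 8446.

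This unnamed gene was looked at after the zeros of Celf1 were seen, and the files do not pair it with Celf1. It had 18.8, 17.1, 15.1 and 9.48 CPM in WT replicates 1 to 4 and 9.70, 8.38, 12.03 and 10.5 in KO replicates 1 to 4. WT replicate 4 lay among the KO mice, and the other 3 WT mice lay above all of them. Its log2 fold change was -0.57 (SE 0.21, adjusted p = 0.545, edgeR). No level of Celf1 can therefore be given here. Dgcr8, of the microRNA pathway, and Exosc6, of the exosome, were also listed at 0 in every mouse.

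Among the 21 pairs of the 7 regulators, no correlation across the 8 mice passed adjustment once the genotype means were removed. The closest pair was Msi2 and Zfp36l2, with a Pearson r of 0.94 (exact permutation p = 0.00868, adjusted 0.182) and a Spearman rho of 0.74 (exact permutation p = 0.0625, adjusted 0.410). Without the 2 mice farthest from the median of Msi2, KO replicate 2 and WT replicate 2, r was 0.64. Msi2 and Zfp36l1 had an r of 0.80 (exact permutation p = 0.0382, adjusted 0.310) and a rho of 0.90 (exact permutation p = 0.0208, adjusted 0.255), and r was 0.79 without the same 2 mice. Both mice left out carry the replicate number 2, and same-numbered mice were not kept together in these permutations. These values also share library and depth.

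The gene with the pattern nearest to that of each regulator over the 8 mice was found by the smallest root mean square difference of centred log2 CPM among protein-coding genes that varied at least as much. For Msi1 it was Bcl7a, a subunit of the SWI/SNF chromatin remodelling complex, with a difference of 0.0445 against an SD of 0.212 for Msi1 itself. Bcl7a was the nearest of 5814 candidates, so its closeness follows in part from the search, and a link was not tested. Bcl7a had a mean of 54.2 CPM in WT and 41.2 in KO. For the other genes it was Hscb for Msi2 (0.0542), Lsm10 for Elavl1 (0.0566) and Slc16a6 for Zfp36l1 (0.0805). For Zfp36l2 it was Ece1 (0.0674), for Pum2 Mob3b (0.0205), and for Qk Mtcl1, at a much larger difference of 0.205.

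The machinery through which these regulators act gave no gene that passed the unadjusted threshold in 4 of its lists. Of 19 genes of CCR4-NOT deadenylation that were tested, none had an unadjusted p under 0.05, and the same was true of the 14 decapping and 5′ decay genes, 10 exosome genes and 9 microRNA silencing genes, where 8.38% of all genes tested had one. Their median log2 fold changes were -0.04, -0.03, -0.05 and -0.0015, beside -0.02 for all genes tested. The most abundant of them had adjusted p-values of 0.669 (Tob1, log2 fold change 0.26) and 0.980 (Btg2, -0.03), both antiproliferative cofactors of deadenylation, in edgeR's test. Pnrc1 (0.0044) and Pnrc2 (-0.09) of decapping, Exosc3 (-0.05) and Exosc10 (0.06) of the exosome, and Ago2 (0.04) and Drosha (0.01) of the microRNA pathway also lay near 0 on the log2 scale.

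The 5 poly(A)-binding proteins and their partners all had a log2 fold change below 0, from -0.16 to -0.03, where 53.9% of all genes tested did. One of them, Paip1, a partner of the poly(A)-binding protein in translation, had an unadjusted p under 0.05, with 77.0 ± 3.57 CPM for WT and 68.9 ± 3.42 for KO (SD, n = 4 each, log2 fold change -0.16, adjusted p = 0.563, edgeR). All KO mice were below all WT mice for Paip1, as in 1.87% of all genes tested, and 3.05% of all genes tested were lower with an unadjusted p under 0.05. Pabpc1, the main cytoplasmic poly(A)-binding protein, had a log2 fold change of -0.09 and Pabpc4 one of -0.03.

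Of 25 other RNA-binding regulators tested, 2 were lower in KO and 1 was higher with an unadjusted p under 0.05, where 8.38% of all genes tested had one, and none passed adjustment. Tia1 and Tial1, the paired proteins of stress granules that hold back translation, were both lower. Tia1 had 68.1 ± 2.36 CPM for WT and 55.5 ± 4.03 for KO (SD, n = 4 each, log2 fold change -0.30, adjusted p = 0.502, edgeR), and all its KO mice lay below all WT mice, as in 1.87% of all genes tested. Tial1 had a log2 fold change of -0.23 (adjusted p = 0.550, edgeR), with 3 of 4 KO mice below all WT mice.

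Cpeb2, a regulator of cytoplasmic polyadenylation, was higher in KO with a log2 fold change of 0.29 (adjusted p = 0.549, edgeR). The most abundant genes of this list, Ybx1 and Pcbp1, had log2 fold changes of 0.07 and -0.03. Of the 14 paralogs of the 8 regulators, 7 passed the filter and none had an unadjusted p under 0.05, with a median of 0.05. Khdrbs1, the most abundant of them after Zfp36, had a log2 fold change of -0.0033. The neuronal paralogs Elavl2, Elavl3 and Elavl4 had at most 14 counts in any mouse and were not tested.

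Transcripts that these proteins are known to bind were listed from general knowledge, with earlier results of these data known. Of 6 Musashi targets, Cdkn1a, which encodes the cell cycle inhibitor p21, was the one with an unadjusted p under 0.05, which 8.38% of all genes tested had. It had 63.4 ± 10.2 CPM for WT and 106 ± 21.3 for KO (SD, n = 4 each), with all KO mice above all WT mice, as in 2.17% of all genes tested (log2 fold change 0.75, SE 0.16, adjusted p = 0.429, edgeR). Lrig1, the most abundant Musashi target, had a log2 fold change of -0.09, and the median of the 6 was -0.05.

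Cdkn1a is also among the 11 AU-rich element targets that were tested, of which 1 stood higher and 1 lower with an unadjusted p under 0.05, beside 8.38% of all genes tested in either direction. The lower one was Myc, the growth-promoting transcription factor, with 110 ± 21.3 CPM for WT and 82.5 ± 8.44 for KO (SD, n = 4 each, log2 fold change -0.42, adjusted p = 0.518, edgeR). Fos and Ccnd1, the most abundant of this list, had log2 fold changes of -0.07 and -0.03. None of 6 Pumilio targets had an unadjusted p under 0.05. Pcna, the most abundant of them, had a log2 fold change of -0.02.

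**Figure D4:**
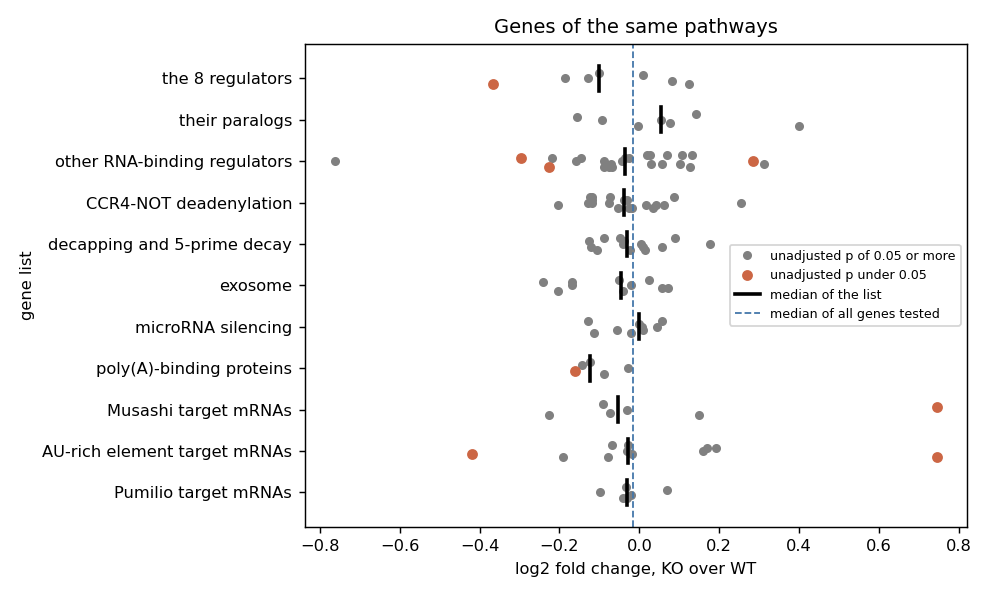
Log2 fold change of KO over WT for each gene tested in the 11 lists (grey, unadjusted p of 0.05 or more; orange, under 0.05; black bars, list medians; dashed line, median of all genes tested, -0.02). Most genes lie near 0, and Cdkn1a, at 0.75 in both the Musashi and the AU-rich lists, lies farthest to the right.

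The 3'UTRs of the regulators differed in their matches to the MEX3A recognition element, a pair of 4-base half-sites with up to 8 bases between them. Matches were counted on the sense strand, without overlap among themselves, and a match is a description of letters, not of binding. Of the genes tested, 13033 (80.9%) had a 3'UTR in the annotation, and 74.2% of these held at least 1 element, with a median of 2. Genes whose 3'UTR was 80% to 125% as long as that of a given regulator served as the comparison.

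Msi1 held no element in its 1895 bases, where 96.8% of 2102 genes of like length held at least 1 and their median was 4. Pum2 stood at the other end with 14 elements in 2841 bases, a number that 4.81% of genes of like length reached. Qk held 28, Elavl1 13, Msi2 12, Celf1 14, and Zfp36l1 and Zfp36l2 6 each, which between 9.97% (Qk) and 59.5% (Celf1) of genes of like length reached. Elements without a spacer, the most compact form, were present in Msi2, Pum2, Celf1, Elavl1 and Qk. Those in Msi2 (chr11:88344294-88344311 and chr11:88340609-88340626, minus strand) and Pum2 (chr12:8751676-8751693, plus strand) are shown as examples, with both half-sites in capitals.
Msi2, MEX3A element, first: taaccATAGTATActtgt
Msi2, MEX3A element, second: gcaatATAGTTTActaca
Pum2, MEX3A element: aatatTGAGTATAaagat

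**Figure D5:**
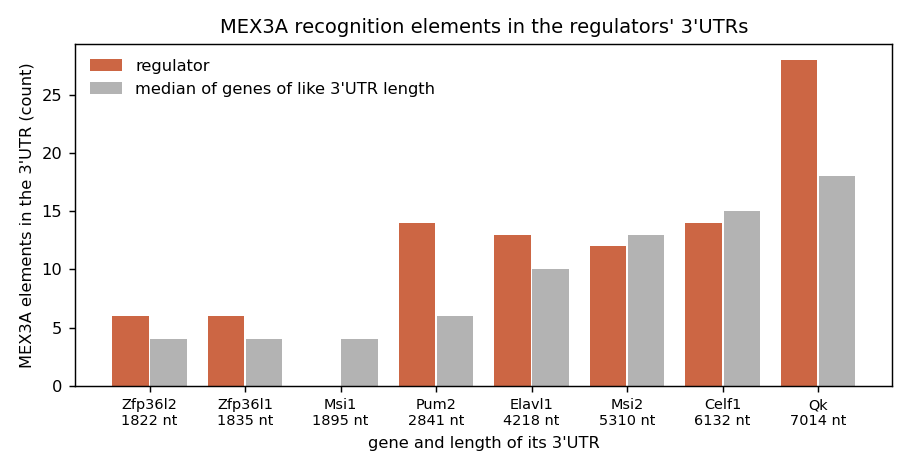
Number of MEX3A recognition elements in the 3'UTR of each regulator (orange bars) beside the median of genes of like 3'UTR length (grey bars), ordered by 3'UTR length in nucleotides. Msi1 has no element where the median is 4, and Pum2 has 14 where it is 6.

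The motifs of the regulators themselves were unevenly spread among the 8 transcripts. The Pumilio motif UGUANAUA, present in 25.6% of the 3'UTRs of all genes tested, was found once in Msi1, 3 times each in Msi2 and Qk and 2 times in Pum2, and not in Celf1, Elavl1, Zfp36l1 or Zfp36l2. Of genes of like 3'UTR length, 32.8% (Msi1), 60.2% (Msi2), 74.4% (Qk) and 43.6% (Pum2) held it at least once. At least as many as the regulator were held by 14.4% (Msi2), 23.6% (Qk) and 13.8% (Pum2). The AU-rich motif UAUUUAU, present in 29.1%, was found 3 times each in Zfp36l1 and Zfp36l2 and 5 times in Elavl1. At least as many were held by 2.61%, 2.53% and 0.915% of genes of like length, and 37.6%, 37.3% and 59.8% held it at least once. It was found once each in Msi1, Msi2, Celf1 and Pum2 and not in Qk. The Quaking motif ACUAAC, present in 18.5%, was found 3 times in Msi2, 2 times in Qk and once each in Msi1, Elavl1 and Pum2. Of genes of like length, 52.8%, 65.8%, 22.9%, 44.5% and 33.5% held it at least once. At least as many as the regulator were held by 4.44% for Msi2 and 29.9% for Qk. A motif overlapped a MEX3A element once each in Celf1, Qk and Pum2. Whether the regulators' proteins occupied any of these sites was not measured.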

How the data were processed

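Total RNA of crypts from 4 KO and 4 WT mice was compared. The deposited table holds the authors' raw counts of reads on each gene and FPKM values for the same genes, whose implied library size was 0.961 to 1.05 times the summed counts. The submitters' processing notes name CASAVA, HISAT2 2.0.5 and featureCounts 1.5.0-p3, and the gene coordinates are those of GRCm38. The deposited group means and size-factor-scaled signal, log2 fold changes and p-values of the authors' own comparison were not used.

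Counts were fitted with edgeR 4.0.16 in R 4.3.3 (filterByExpr with a minimum count of 10, TMM factors, quasi-likelihood test, genotype as the only term), and p-values were adjusted by Benjamini-Hochberg over 16109 genes with a threshold of 0.05. CPM use TMM-scaled library sizes. Single values were compared by exact permutation tests with scipy 1.17.1 in Python 3.11.15. Correlations used log2 CPM with a prior count of 2 and the 576 pairings within genotype. Limma 3.58.1 on log2(FPKM + 1) and log2(FPKM + 0.1), DESeq2 1.42.0, other factors and filters, an Xist covariate and leaving out each mouse were alternatives. The fits were tested on simulated data. Figures used matplotlib 3.10.9.

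Members and gene lists were chosen with earlier results of these data known. Named genes are the 8 regulators, Mex3a, list genes with an unadjusted p under 0.05 or among the 2 highest by FPKM of their list, and the gene nearest in pattern to each regulator; some genes named by this rule are not reported here. Outside it, the stem cell markers, Lum, Ccl25, Ndufs3, Dgcr8, Exosc6 and Elavl2 to Elavl4 are named, and were chosen after their values were seen. The epithelial markers, Xist and Ddx3y are named outside it as well. The replicate numbers are shared between littermate groups, without a stated litter per number. After the genotype means were taken out, mice of the same number correlated at 0.129, 0.501, 0.141 and 0.294 over all genes. Mice of different numbers were not compared, and same-numbered mice also share Xist or Ddx3y. These values therefore cannot show whether the numbers pair the mice. The tests reported first do not use a pairing, and blocking by replicate number was an alternative. The mice are separate animals. Intervals from counts of 0 cover counting error only.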

Additional observations from a re-analysis of the deposited data

How the results depend on the processing

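Msi1 kept its direction and an unadjusted p under 0.05 in all 18 alternatives to the edgeR fit. Its log2 fold change of -0.37 lay between -0.41 (without KO replicate 1) and -0.33 (without WT replicate 4) on counts. Its adjusted p passed 0.05 in DESeq2 alone (log2 fold change -0.36, adjusted p = 0.0226). The pairing by replicate number, as a block, gave Msi1 an adjusted p of 0.216 and raised the number of regulators with an unadjusted p under 0.05 from 1 to 2, by Msi2, while it changed no other call among them. It also raised that number among all 16109 genes tested from 1350 to 1815. The same number was 2 with limma on log2(FPKM + 1) without a filter, by Pum2, and 1 to 2 when 1 mouse was left out.

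The genes with an adjusted p under 0.05 numbered 1 in the edgeR fit and 93 with DESeq2, 2 without a filter, 0 with at least 10 counts in every mouse, and 2, 2 and 3 with limma on log2(FPKM + 1), on log2(FPKM + 0.1) and on log2(FPKM + 1) without a filter. They numbered 0 with the replicate block, 4 with the Xist covariate, and 0 to 4 when 1 mouse was left out. The cause was not tested.

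Directions near 0 were not stable. Zfp36l2 was -0.0065 with upper-quartile factors and -0.085 to 0.089 with 1 mouse left out, Elavl1 -0.20 to 0.035 Qk -0.082 to 0.60 and Zfp36l1, always above 0, 0.01 to 0.16. The KO minus WT difference of the Zfp36l1 to Zfp36l2 log2 ratio, 0.06, lay between -0.015 and 0.14 when 1 mouse was left out. With 4 mice a group no exact permutation p of KO against WT can fall below 0.0286, and 4 pairs cannot reach 0.05. Genes with few counts, such as Qk, are limited by depth.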
